A study of Mus musculus with 6 samples.

Results

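The genes described here mark the oligodendrocyte lineage: Pdgfra, Cspg4, Olig2, Sox10, Myrf, Gpr17, Bcas1, Enpp6, Itpr2 and Daam2. They were taken by symbol from a table of isoform counts of mouse hippocampus, in which these 10 of 53354 gene symbols account for 52 of 133944 isoforms. Bcas1 and Daam2 were listed because they differed between the genotypes in these same libraries, so their genotype difference is given as a description, and the other 8 were listed for their place in the lineage. Hippocampi of 3-month-old C57BL/6 mice were compared, 3 of the N-cre and 3 of the N-cre;Fox1 genotype, with 1 library of total RNA per mouse. Both genotypes carry Nes-Cre, a Cre recombinase driven by nestin sequences, which are active in neural progenitors. N-cre;Fox1 mice carry in addition 1 R26-Rbfox1 +/flox allele, in which Cre removes a stop cassette and a CAG promoter then drives a cDNA of the splicing regulator Rbfox1 from the Gt(ROSA)26Sor locus. The study described Cre activity in granule cells of the dentate gyrus and in pyramidal neurons of CA1 and CA3. It called this activity neuron-specific in the hippocampus and placed the induced Rbfox1 in neurons only. Its staining showed no overlap of Rbfox1 with the glial marker GFAP. It gives no separate account for oligodendrocytes. Nothing in the labels says whether the mice were littermates or of which sex they were. The p-values set the difference between genotypes against the variation among mice of the same genotype, and hold for these 6 mice.

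Oligodendrocytes, the myelin-forming cells of the brain, arise from precursors that persist in the adult hippocampus. The precursors carry the growth factor receptor Pdgfra and the proteoglycan Cspg4 (NG2) on their surface, and Olig2 and Sox10 are transcription factors of the whole lineage. When a precursor leaves the cell cycle it passes through a premyelinating stage, marked by the receptor Gpr17, by Bcas1, by the choline phosphodiesterase Enpp6 and by the calcium release channel Itpr2, before Myrf switches on the myelin genes. Bcas1 stays on in young myelinating cells. Daam2 is a formin, a protein that nucleates actin filaments, and it binds Dishevelled in the Wnt pathway. It is known from oligodendrocyte precursors and also from astrocytes.

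The isoforms that carry most of the Bcas1 and Daam2 counts differ in a few stretches, described here, with the sequences of Bcas1, because the isoform values below rest on them. Bcas1 (ENSMUSG00000013523.13) lies on the minus strand of chromosome 2 from 170346991 to 170427845 in mm10. Of its coding models Bcas1-201 (ENSMUST00000013667.2) is annotated with 13 exons and 2916 nt, and Bcas1-208 (ENSMUST00000154650.7) with 7 exons and 2222 nt. Bcas1-208 begins inside the exon that is exon 4 of Bcas1-201, so its annotated 5′ end is partial. Its last exon is longer, 1158 nt against 1001 nt, and runs to 170346991, where that of Bcas1-201 stops at 170347148. Both hold exon 7 of Bcas1-201, a coding exon of 138 nt or 46 codons from 170384189 to 170384326, which Bcas1-202 and Bcas1-203 skip. Bcas1-208 skips exons 9, 10 and 11, which are 42, 165 and 66 nt long and together add 91 codons to Bcas1-201. In the next lines capitals mark exon 7 in the first line and exons 9 to 11 in the Bcas1-201 line, and, in the lines with a skip, the start of the exon that is reached.
Bcas1-201 and Bcas1-208, exons 6 to 8: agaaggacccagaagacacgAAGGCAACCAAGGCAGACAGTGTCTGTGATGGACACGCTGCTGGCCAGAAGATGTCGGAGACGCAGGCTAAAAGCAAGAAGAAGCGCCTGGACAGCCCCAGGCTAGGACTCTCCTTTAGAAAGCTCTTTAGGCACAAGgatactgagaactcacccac
Bcas1-202, exon 6 joined to exon 8: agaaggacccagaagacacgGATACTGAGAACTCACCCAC
Bcas1-201, exons 8 to 12: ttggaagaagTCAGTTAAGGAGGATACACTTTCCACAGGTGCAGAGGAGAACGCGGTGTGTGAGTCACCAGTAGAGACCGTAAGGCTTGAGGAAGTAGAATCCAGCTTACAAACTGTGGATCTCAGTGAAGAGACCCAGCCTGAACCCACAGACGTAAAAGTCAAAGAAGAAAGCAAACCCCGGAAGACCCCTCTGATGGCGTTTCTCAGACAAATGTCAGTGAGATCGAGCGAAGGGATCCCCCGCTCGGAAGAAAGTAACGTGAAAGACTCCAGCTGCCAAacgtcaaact
Bcas1-208, exon 8 joined to exon 12: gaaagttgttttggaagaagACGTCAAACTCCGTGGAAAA

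Daam2 (ENSMUSG00000040260.8) lies on the minus strand of chromosome 17 from 49456022 to 49564343. Its coding model Daam2-201 (ENSMUST00000057610.7) has 26 exons and 3646 nt. Daam2-203 (ENSMUST00000224954.1) is annotated as a retained intron transcript, with 24 exons, 8956 nt and no coding sequence. It keeps 2 introns of Daam2-201, of 2195 and 716 nt. It also runs 2405 nt past the end of Daam2-201, from 49458426 down to 49456022. The stretches of Daam2-203 that are in no other Daam2 model are the 2911 nt of introns and the 2405 nt of 3′ end, 32.5% and 26.9% of its length. Daam2-203 is therefore the only model of the gene to which RSEM could assign reads from the long 3′ end, whether or not the introns were spliced. None of the 4 coding Bcas1 models has a base of its own. RSEM could separate them only by which exons, splice junctions and ends a fragment covered. Exons 9 to 11 are absent from Bcas1-208 and present in Bcas1-201, Bcas1-202 and Bcas1-203. Among coding models only Bcas1-203, which had no counts, and Bcas1-208 run to 170346991. Reads from that end could therefore be given to Bcas1-208, whether or not exons 9 to 11 were skipped.

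**Figure D1:**
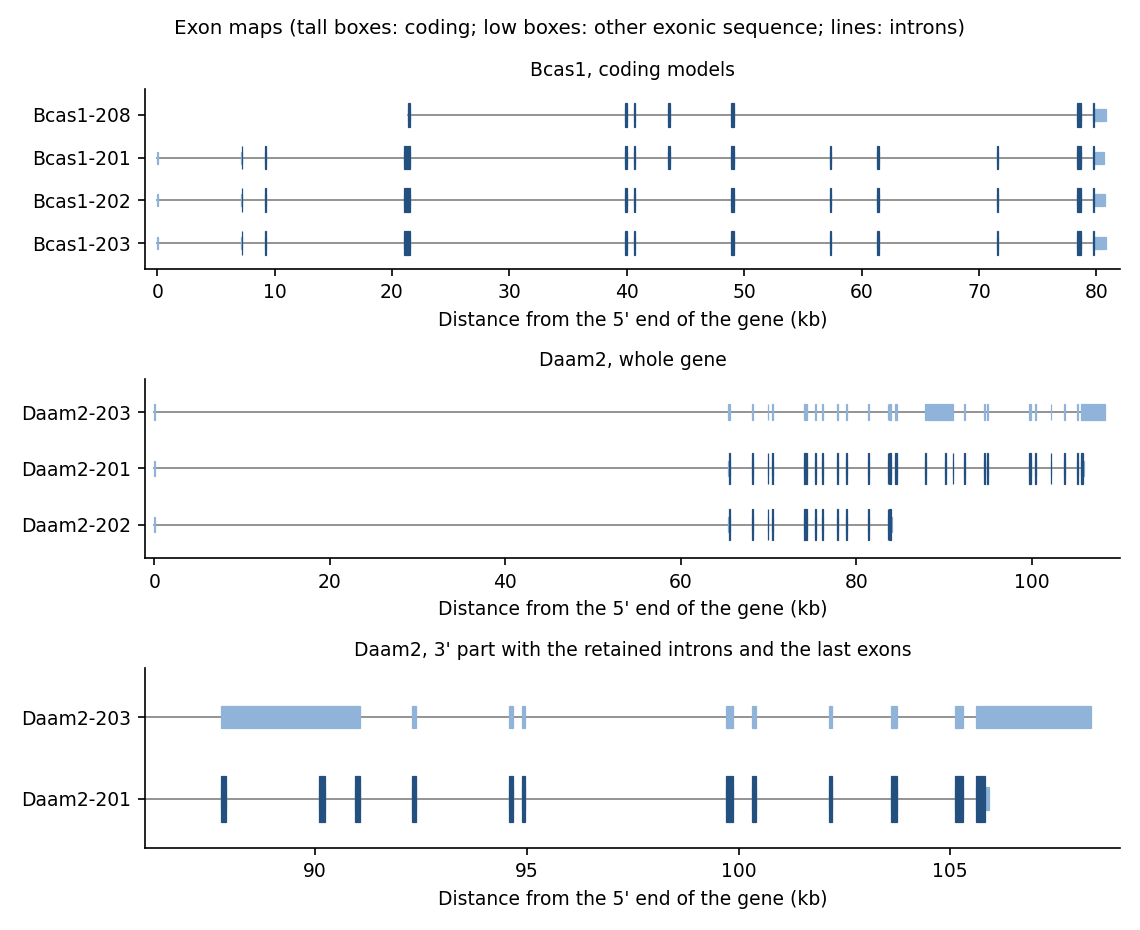
Exon maps to scale of the coding Bcas1 models (top), of Daam2-203, Daam2-201 and Daam2-202 (middle) and of the 3′ part of Daam2 (bottom), with the distance from the 5′ end of the gene in kb. Tall boxes are coding sequence, low boxes other exonic sequence and lines introns. Daam2-203 shows 1 wide box where Daam2-201 has 3 exons and a longer last exon.

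The libraries held 40.5 M to 62.1 M assigned read pairs per mouse. The values are expected counts, the number of read pairs that RSEM attributed to an isoform. Gene values are sums over isoforms, normalized by edgeR's TMM method to the mean library, and all 10 genes passed the filter on low counts. Rbfox1 itself had 15286, 14456 and 14698 normalized counts in N-cre replicates 1, 2 and 3 and 15939, 13571 and 15283 in N-cre;Fox1 replicates 1, 2 and 3. The genotypes overlapped at a log2 fold change of 0.01 ± 0.0566 (SE), with a 95% interval of -0.12 to 0.14 from edgeR, whose upper bound is a ratio of 1.10. The higher Rbfox1 count that the label N-cre;Fox1 implies was not seen in this sum, so every direction given here is between mice as labelled. The study itself reported a modest rise of Rbfox1 mRNA and, by immunoblot, of Rbfox1 protein in N-cre;Fox1 hippocampi. Xist was at 27387 and 22347 counts in replicate 1 of each genotype and at 17 to 22 in the others. Choroid plexus markers summed to 4237 TPM (a level per length, scaled to an equal total in each mouse) in N-cre replicate 3 and 9712 in N-cre;Fox1 replicate 2, and to 22.0 to 37.7 elsewhere, with Ttr, Folr1, Kl, Clic6 and Kcne2 all detected. Neuron markers summed to 5519 to 5941 TPM and mature oligodendrocyte genes to 5584 to 6830, as a check of the tissue.

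Across the lineage genes, Bcas1 was higher in N-cre;Fox1 hippocampi and Daam2 was lower, while precursor receptors and lineage transcription factors had overlapping counts in the 2 genotypes. Enpp6 and Itpr2 did not overlap either, Enpp6 at lower and Itpr2 at higher counts in N-cre;Fox1 mice, but neither passed the test over all genes. Of the 8 genes not chosen by this contrast, 0 reached an adjusted p under 0.05 by the quasi-likelihood test of edgeR, against 0.0264% of the 18924 genes tested (5 genes). At an unadjusted p under 0.05 the count was 1 of 8, Enpp6, against 6.19% of all genes, and 2 of 8 did not overlap between the genotypes, against 12.1% of all genes. Their log2 fold changes lay between -0.22 and 0.10, and the median of all genes was 0.00. In a bulk sample, fewer cells of a type and less RNA per cell cannot be told apart.

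**Figure D2:**
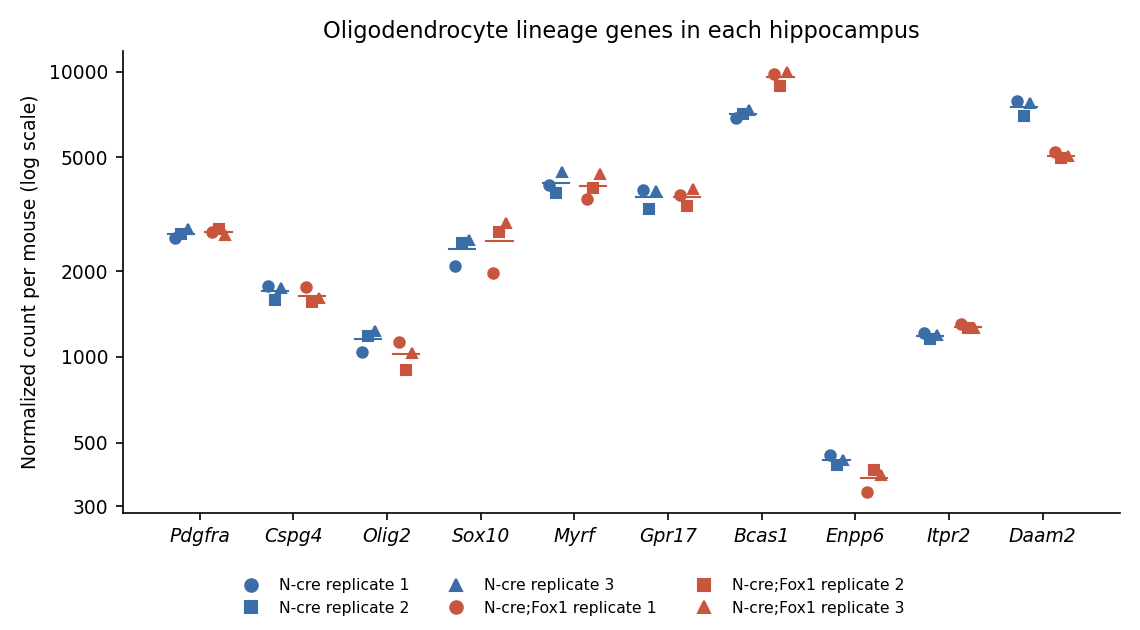
Normalized counts of the 10 genes in each mouse, on a log axis, with N-cre mice in blue and N-cre;Fox1 mice in red, symbols by replicate number and a line at each mean. The genotypes are separate for Bcas1, Enpp6, Itpr2 and Daam2 and overlap for the other 6 genes, and Sox10 is lowest in replicate 1 of both genotypes.

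By level per length, Bcas1 led with a mean of 161 TPM, from 130.3 to 143 in N-cre against 174 to 195 in N-cre;Fox1 mice. Sox10 (40.2 TPM), Daam2 (35.7), Myrf (34.2) and Gpr17 (31.0) followed, and each overlapped with its neighbour in this order over the 6 mice. Olig2 (19.0) and Pdgfra (18.8) overlapped with each other and lay below Gpr17. Cspg4 (11.8), Itpr2 (6.08) and Enpp6 (4.52) came last, each separate from its neighbours. TPM were computed from annotated lengths, so a change of isoform can move them.

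The precursor receptors had like counts in both genotypes. Pdgfra (ENSMUSG00000029231.15, chromosome 5, 75152292 to 75198215), the receptor for platelet-derived growth factor on precursors, had 2615, 2687 and 2799 normalized counts in N-cre and 2740.3, 2816 and 2672 in N-cre;Fox1 mice. The log2 difference was 0.02 ± 0.0391 (SE), with an adjusted p of 0.972 from edgeR. Cspg4 (ENSMUSG00000032911.6, chromosome 9, 56865033 to 56899870), the proteoglycan NG2, had 1767, 1582 and 1747 in N-cre and 1762, 1558 and 1604 in N-cre;Fox1 mice, a log2 fold change of -0.05 ± 0.0614 (SE) with an adjusted p of 0.961 from edgeR. Every N-cre;Fox1 value of Cspg4 but the lowest lay within the range of N-cre, as did 2 of 3 of Pdgfra. Both genes are also known from cells of blood vessels and meninges. Pericyte and fibroblast markers summed to 254 to 303 TPM in N-cre against 253 to 383 in N-cre;Fox1 mice, highest in the same 2 mice that held choroid plexus transcripts. With only the 4 other mice the log2 fold change of Pdgfra was 0.03 and that of Cspg4 0.0073.

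Among the transcription factors Olig2 (ENSMUSG00000039830.9, chromosome 16, 91225457 to 91228677), which founds and keeps the lineage, had 1042, 1183 and 1229.9 normalized counts in N-cre and 1129, 898 and 1034 in N-cre;Fox1 mice. Its mean was 1152 ± 97.7 against 1020.5 ± 116 (SD, n = 3 each), and the log2 fold change was -0.17 ± 0.0919 (SE) with an adjusted p of 0.833 from edgeR. The genotypes overlapped through the replicate 1 mice, the 2 with Xist. Between these 2 the log2 difference was 0.11 and among the other 4 mice -0.32, so the 2 strata differed in sign. Without N-cre;Fox1 replicate 2 the log2 fold change of Olig2 was -0.09, and in the 4 mice without choroid plexus transcripts -0.04.

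Sox10 (ENSMUSG00000033006.10, chromosome 15, 79154908 to 79165240), a partner of Olig2 that also drives myelin genes, had 2079.5, 2499.5 and 2575 in N-cre and 1971, 2729.8 and 2948 in N-cre;Fox1 mice. It varied more within a genotype than between them, with coefficients of variation of 11.2% and 20.1%. Both mice with Xist lay below all 4 others, by 0.41 on the log2 scale, and why was not tested. The log2 fold change between genotypes was 0.10 ± 0.187 (SE), with an adjusted p of 0.975 from edgeR.

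Myrf (ENSMUSG00000036098.15, chromosome 19, 10208272 to 10240748), the membrane-bound regulator that turns on myelin genes, had 3993, 3739.8 and 4433 in N-cre and 3577, 3912 and 4381 in N-cre;Fox1 mice. The log2 difference was -0.03 ± 0.0934 (SE), with an adjusted p of 0.986 from edgeR, and each genotype held low and high mice.

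Of the premyelinating genes, Gpr17 (ENSMUSG00000052229.5), a receptor that is switched on as precursors commit and off before myelination, had 3834, 3303 and 3809 normalized counts in N-cre and 3700.4, 3369.7 and 3873 in N-cre;Fox1 mice. The mean was 3648 in both genotypes, with SDs of 299.6 and 256 (n = 3 each), and the adjusted p was 0.999 from edgeR. Of the exonic sequence of Gpr17, 188 nt or 3.62% also belong to Lims2 on the other strand, which had 476 to 628 counts.

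Bcas1, a protein of premyelinating and young myelinating cells, had 6864, 7080.4 and 7311 normalized counts in N-cre replicates 1, 2 and 3 and 9823, 8866 and 9984 in N-cre;Fox1 replicates 1, 2 and 3. The lowest N-cre;Fox1 mouse lay above the highest N-cre mouse. The mean was 7085 ± 224 in N-cre and 9558 ± 605 in N-cre;Fox1 mice (SD, n = 3 each), a ratio of 1.35 and a log2 fold change of 0.43 ± 0.0483 (SE). The adjusted p of 0.0155 from edgeR chose the gene, and among the 5 genes under the threshold Bcas1 and Sspn (also 0.0155) stood last, before Amy2a5 at 0.0829 just outside it. The call was lost without N-cre replicate 1 (adjusted p 0.0737), 2 (0.304) or 3 (0.119) and without N-cre;Fox1 replicate 3 (0.127), all from edgeR, with log2 fold changes of 0.40 to 0.46 in those fits. The log2 difference was 0.52 between the 2 mice with Xist and 0.39 among the other 4. With only the 4 mice without choroid plexus transcripts it was 0.51. Bcas1os1, annotated on the other strand across 440 nt or 11.7% of the exonic sequence of Bcas1, had 1.21 to 13.2 counts. Whether the counting used the strand of the reads is not given in the sources used here.

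Enpp6 (ENSMUSG00000038173.15, chromosome 8, 46986887 to 47096762), an enzyme of newly formed oligodendrocytes, was the least abundant member, with 452, 418 and 437 normalized counts in N-cre and 337, 401 and 387 in N-cre;Fox1 mice. Each N-cre;Fox1 mouse lay below each N-cre mouse, with N-cre;Fox1 replicate 1 the lowest. The means were 436 ± 17.2 and 375 ± 33.7 (SD, n = 3 each), a log2 fold change of -0.22 ± 0.0974 (SE), with a p of 0.0496 before and 0.799 after adjustment in edgeR. Without that lowest mouse the log2 fold change of Enpp6 was -0.14. The sign of Enpp6 was opposite to that of Bcas1, although both mark premyelinating cells.

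Itpr2 (ENSMUSG00000030287.15, chromosome 6, 146108299 to 146502223), a channel that releases calcium from the endoplasmic reticulum and gives its name to a class of differentiating cells, had 1216, 1153 and 1191 in N-cre and 1299, 1264 and 1261 in N-cre;Fox1 mice. All 3 N-cre;Fox1 mice lay above all 3 N-cre mice, at means of 1275 ± 21.1 and 1186 ± 31.8 (SD, n = 3 each). The log2 fold change was 0.10 ± 0.0494 (SE), with a p of 0.0614 before and 0.799 after adjustment in edgeR. Its level in TPM overlapped between the genotypes, from 5.38 to 6.65 in N-cre against 5.53 to 6.56 in N-cre;Fox1 mice. Itpr2 is the only member on chromosome 6, which also holds the Gt(ROSA)26Sor locus of the transgene, 33.0 Mb away. Its paralogues Itpr1 and Itpr3 had log2 fold changes of 0.003 and -0.07, with adjusted p of 0.996 and 0.975 from edgeR.

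Daam2 had 7879, 6982 and 7757 normalized counts in N-cre replicates 1, 2 and 3 and 5214, 4966 and 5047 in N-cre;Fox1 replicates 1, 2 and 3. All N-cre;Fox1 mice lay below all N-cre mice, and they were closer to each other than the N-cre mice were. The means were 7539.6 ± 487 and 5076 ± 126 (SD, n = 3 each), a ratio of 0.673 and a log2 fold change of -0.57 ± 0.0481 (SE). The adjusted p that chose it was 0.00146 from edgeR, and it stayed under the threshold in all 16 alternatives, at up to 0.0397. The log2 difference was -0.60 between the 2 mice with Xist and -0.56 among the other 4.

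**Figure D3:**
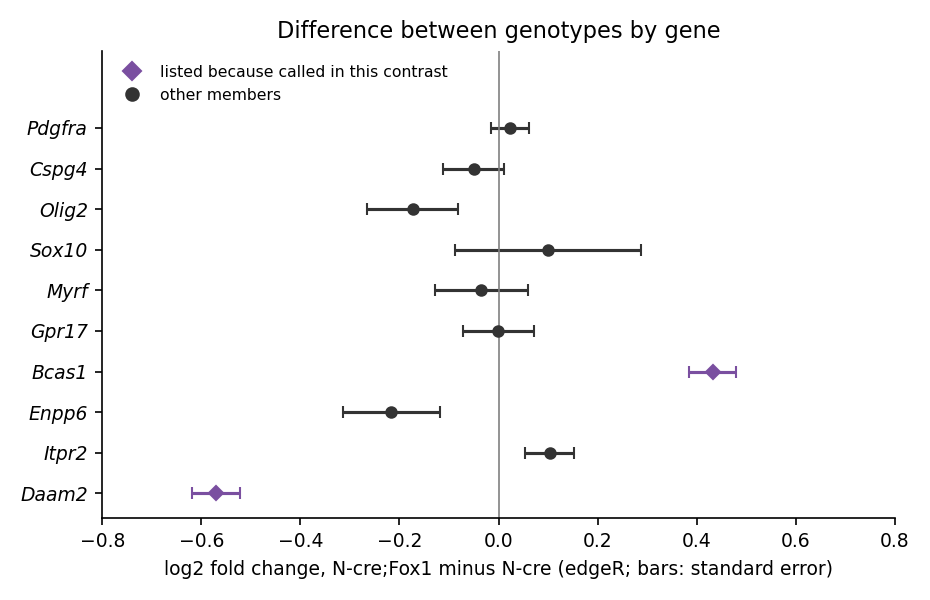
Log2 fold change of each gene, N-cre;Fox1 minus N-cre, with its standard error from edgeR, with diamonds for the 2 genes listed because of this contrast. Bcas1 stands at 0.43 and Daam2 at -0.57, and the other 8 lie between -0.22 and 0.10.

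Set against the other stages in the same mouse, the ratio of Bcas1 to Gpr17 counts was 1.79, 2.14 and 1.92 in N-cre and 2.65, 2.63 and 2.58 in N-cre;Fox1 mice. That of Daam2 to Gpr17 was 2.06, 2.11 and 2.04 in N-cre and 1.41, 1.47 and 1.3 in N-cre;Fox1 mice. Ratios to Myrf and to Pdgfra did not overlap between the genotypes either, with Bcas1 to Pdgfra at 2.61 to 2.64 in N-cre against 3.15 to 3.74 in N-cre;Fox1 mice. Since this contrast chose Bcas1 and Daam2, the ratios are a description.

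Isoform counts were tested over 50556 isoforms and normalized over them, so they differ slightly in scale from gene counts. Of the 52 isoforms of the 10 genes, 12 had no count in any mouse and 26 passed the filter. An adjusted p under 0.05 was reached by 0 of the 26 in edgeR, against 0% of all isoforms, and by 0 in limma-voom, likewise against 0%. DESeq2's Wald test called 2, against 0.426% of all isoforms. At an unadjusted p under 0.05 in edgeR there were 2, Bcas1-208 and Daam2-203, against 4.78% of all isoforms. For 6 of the 26 the genotypes were separate, against 11.5% of all isoforms. These 6 were Bcas1-208, Itpr2-202 and Pdgfra-205 at higher and Daam2-203, Cspg4-203 and Cspg4-204 at lower counts in N-cre;Fox1 mice. The genes of 2 of them were chosen by this contrast.

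Most Bcas1 counts were given to Bcas1-208, the short model. It had 5391, 5697 and 5952 normalized counts in N-cre and 8058, 7454 and 8120.1 in N-cre;Fox1 mice, with no overlap. Its log2 fold change was 0.47 ± 0.0529 (SE), with an adjusted p, set over all isoforms, of 0.292 from edgeR and from 9.23e-11 to 0.975 over the 16 alternatives. Since Bcas1-208 holds most of the counts that put Bcas1 on the list, these values are a description. Bcas1-201, which holds exons 9 to 11, had 1407, 1280.1 and 1218 in N-cre and 1598, 1296 and 1651 in N-cre;Fox1 mice, overlapping at a log2 fold change of 0.22 ± 0.107 (SE). Of the Bcas1 counts of a mouse, Bcas1-208 took 78.4%, 80.4% and 81.5% in N-cre and 82.1%, 84.0% and 81.5% in N-cre;Fox1 mice, and Bcas1-201 took 20.5%, 18.1% and 16.7% against 16.3%, 14.6% and 16.6%. The shares of Bcas1-208 met at their edge, with N-cre replicate 3 and N-cre;Fox1 replicate 3 both at 81.5% after rounding. Bcas1-202, without exon 7, had 46.8 to 82.8 counts in N-cre against 62 to 124 in N-cre;Fox1 mice. The noncoding Bcas1-204 had 20.5 to 80.2 counts over all mice, Bcas1-205 had 1.16 to 10.9 and Bcas1-206 had 0 to 7.21. Bcas1-203, Bcas1-207 and Bcas1-209 were at 0 in all 6 mice.

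Of Daam2, Daam2-203 took 93.9%, 94.7% and 91.8% of the counts in N-cre and 89.2%, 90.3% and 89.7% in N-cre;Fox1 mice. Its normalized count was 7409, 6618 and 7114 in N-cre and 4649.8, 4486 and 4518 in N-cre;Fox1 mice, with all N-cre;Fox1 mice lower. The log2 fold change was -0.63 ± 0.0485 (SE). Its adjusted p of 0.0691 from edgeR was the smallest value among all isoforms tested, and the adjustment gave other isoforms the same value. Over the 16 alternatives the adjusted p of Daam2-203 ran from 3.66e-25 to 0.933. Daam2-203 holds most of the counts that put Daam2 on the list, so these p-values repeat that choice and are a description. Daam2-201, the coding model, had 381, 341 and 545 in N-cre and 463, 375 and 447 in N-cre;Fox1 mice, which overlapped at a log2 fold change of 0.02 ± 0.197 (SE). Its share of the gene's counts was 4.82%, 4.88% and 7.03% in N-cre and 8.89%, 7.55% and 8.88% in N-cre;Fox1 mice. A longer model gathers more counts per molecule. In TPM the mean share over all mice was 79.5% for Daam2-203 and 14.8% for Daam2-201. The lower sum of Daam2 in N-cre;Fox1 mice was therefore placed by RSEM in Daam2-203, the model with the retained introns and the long 3′ end. Daam2-202, which ends early, had 27.1 to 103 counts in N-cre against 66.0 to 104 in N-cre;Fox1 mice, and Daam2-204 had 1.10 to 4.43 over all mice.

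**Figure D4:**
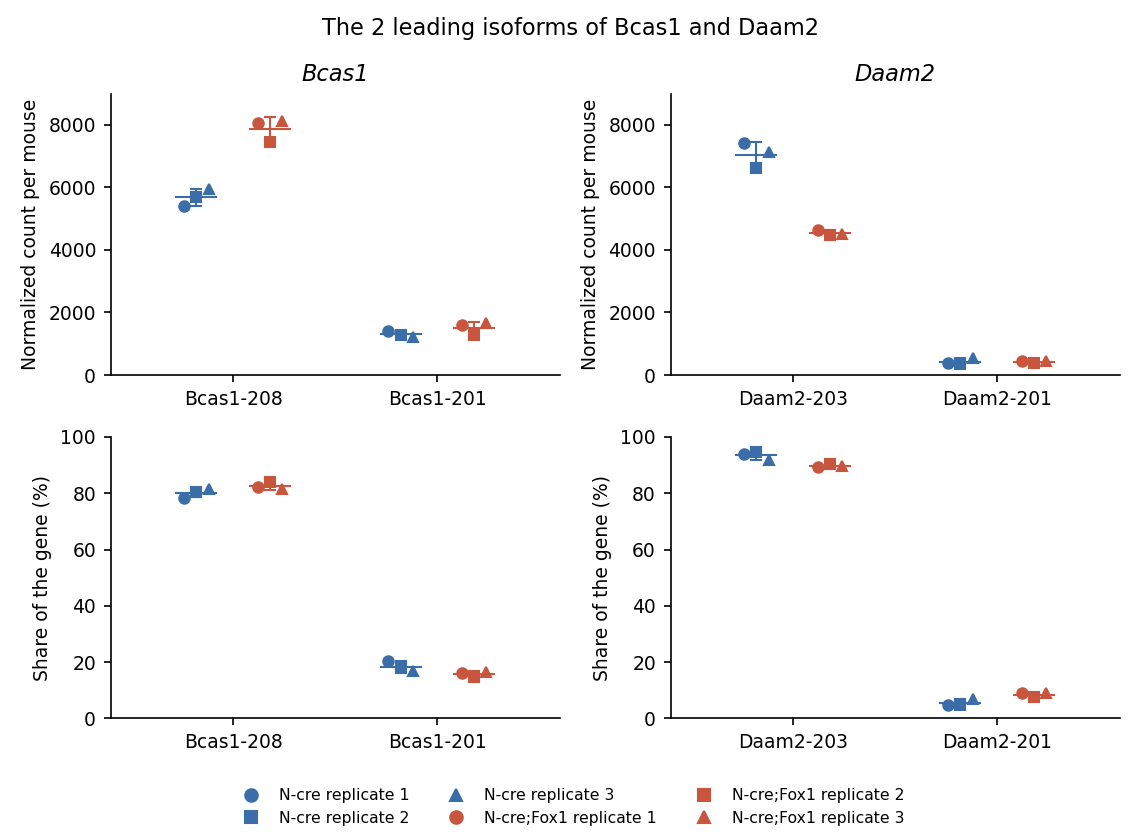
Normalized counts (top) and shares of the gene's counts in percent (bottom) of the 2 leading isoforms of Bcas1 and of Daam2, with 1 symbol per mouse, N-cre in blue and N-cre;Fox1 in red, and the mean with its SD (n = 3). In counts, Bcas1-208 and Daam2-203 are separate between genotypes, while Bcas1-201 and Daam2-201 overlap. In shares, Daam2-203 and Daam2-201 are separate, and the genotypes nearly meet for Bcas1-208 (81.5% in both) and Bcas1-201 (16.7% against 16.6%).

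In the other members 1 coding model led. Pdgfra-201 took 87.8% to 97.3% of the counts, Cspg4-201 67.8% to 77.3%, Myrf-201 79.8% to 83.4%, Enpp6-201 88.5% to 97.5% and Itpr2-202 95.8% to 98.4%, and Olig2, Sox10 and Gpr17 have 1 model each. Itpr2-202 had 1172, 1135 and 1139 normalized counts in N-cre and 1261, 1234 and 1232 in N-cre;Fox1 mice, at a log2 fold change of 0.11 ± 0.0476 (SE) and an unadjusted p of 0.0537 in edgeR. Enpp6-201 overlapped between the genotypes, unlike the sum of the gene, at 370.5 to 416 in N-cre against 305 to 376 in N-cre;Fox1 mice. The retained intron model Cspg4-204 had 295, 331 and 261 counts in N-cre and 248, 249 and 218 in N-cre;Fox1 mice (adjusted p of 0.990 from edgeR), while the coding Cspg4-201 had a log2 fold change of 0.01 ± 0.0990 (SE).

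Other genes of the lineage and of the pathways of Daam2 and Itpr2 were counted from lists, and 0 of their genes reached an adjusted p under 0.05 in edgeR. The 20 precursor genes had a median log2 fold change of 0.0072, with 1 at an unadjusted p under 0.05, Xylt1, a starter enzyme of proteoglycan chains (0.11, adjusted p of 0.769 from edgeR), and Pcdh15 lowest in p among the negative ones (-0.14). The 15 genes of committed and newly formed oligodendrocytes had a median of -0.02 and 0 at an unadjusted p under 0.05, with Frmd4a at 0.10 and Tns3 at -0.08. The 24 mature oligodendrocyte genes had a median of -0.02. Of these Mobp, a myelin protein, was higher without overlap (0.17, adjusted p of 0.769 from edgeR) and Anln, a septin scaffold of myelin, lower without overlap at 1995, 1810.1 and 1940.3 counts in N-cre and 1629, 1515 and 1616 in N-cre;Fox1 mice (-0.27, adjusted p of 0.307 from edgeR). All 3 medians lay within 0.03 of the median of all genes.

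The 17 Wnt pathway genes had a median log2 fold change of 0.05, with Axin1, a scaffold of the destruction complex, at 0.11 (adjusted p of 0.799 from edgeR) and the secreted inhibitor Notum at -0.33 (adjusted p of 0.815 from edgeR). The 13 other formins had a median of 0.02. Fmn1 (0.21) and Fhod3 (-0.23) had unadjusted p of 0.0421 and 0.0306 in edgeR and overlapped between the genotypes. The other formins ranged from -0.23 to 0.22, against -0.57 for Daam2.

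Daam2 is also known from astrocytes, and markers of these cells were set beside it. Of 12 markers 5 had an unadjusted p under 0.05, 4 at higher counts (Gfap, Aqp4, Slc1a2 and Gja1, all without overlap) and Fgfr3 at lower counts, against 6.19% of all genes under that p and 12.1% without overlap. None passed the adjusted threshold. Their summed level was 2549 to 2716 TPM in N-cre against 2699 to 2904 in N-cre;Fox1 mice, which overlap. Gfap, the filament protein of astrocytes, had 24304, 23597 and 22722 counts in N-cre and 34277, 28026 and 29773 in N-cre;Fox1 mice, at a log2 fold change of 0.38 (edgeR, adjusted p of 0.320). Per 1000 TPM of the astrocyte list, Daam2 was at 14.7 to 17.0 TPM in N-cre against 10.6 to 10.9 in N-cre;Fox1 mice, and Bcas1 at 48.0 to 55.4 and 64.6 to 69.7. The part of astrocytes in the values of Daam2 and Bcas1 was not tested.

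**Figure D5:**
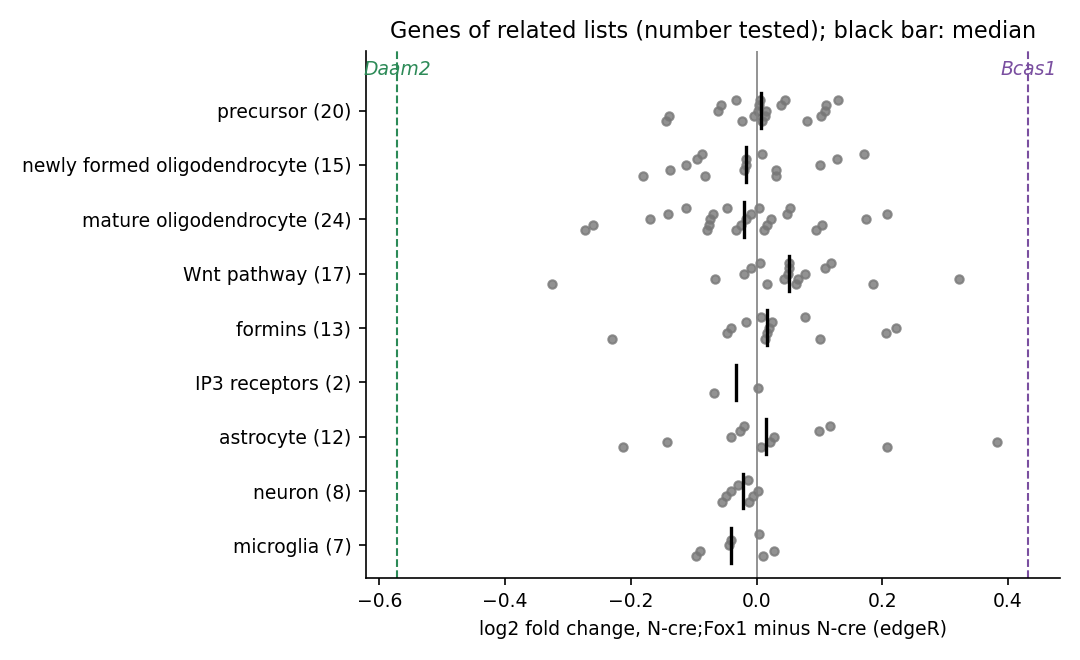
Log2 fold change of each tested gene of 9 of the 13 lists (oligodendrocyte stages, Wnt pathway, formins, inositol trisphosphate receptors, astrocytes, neurons and microglia), N-cre;Fox1 minus N-cre, with the median as a black bar and the values of Bcas1 and Daam2 as dashed lines. The medians of these 9 lists lie between -0.04 and 0.05, and Gfap, at 0.38, is the point nearest to Bcas1.

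The genes whose profile over the 6 mice lay nearest to that of Bcas1 were sought among 13737 others with a mean count of at least 100, by the root mean square difference of centred log2 counts. They were Gm28192 (0.0752), Thrsp, a regulator of fatty acid synthesis (0.0821), and Gfap (0.0895), against a median of 0.233 over all genes compared. Thrsp had 1391, 1391 and 1341 counts in N-cre and 1978, 1633 and 1729 in N-cre;Fox1 mice. For Daam2 they were Gm20515 (0.114), Gm43034 (0.122) and Gm28756 (0.125), against a median of 0.299. These 3 had means of 173, 132 and 137 counts in N-cre and 115, 99.2 and 105 in N-cre;Fox1 mice. Bcas1 and Daam2 were chosen for their step between the genotypes in these same 6 mice, so the nearest profiles share that step and say nothing of the lineage.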

How the data were processed

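RNA-seq of hippocampi from 3 N-cre and 3 N-cre;Fox1 mice was used, grouped by the sample labels. Per the labels and the study's methods, the authors used cutadapt 1.18 for trimming, STAR 2.5.2b for mapping to mm10 and RSEM 1.3.0 for quantification of isoforms. They deposited expected counts, not normalized, of 133944 isoforms. Columns of no sample of this series numbered 0.

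Expected counts were rounded after summing isoforms by gene symbol. The comparison of genotypes was made with edgeR 4.0.16 in R 4.3.3 (filterByExpr at a minimum count of 10, TMM, robust quasi-likelihood test, no term but genotype). P-values were adjusted by Benjamini-Hochberg over all genes or all isoforms, at a threshold of 0.05. The fits were tested on simulated data. TPM were computed from transcript lengths of GENCODE M21 on mm10, a later release than the authors' annotation, in which 51 of the 52 member isoforms have the same version. Sequences are from the same release. One stretch of Daam2 sequence is not reported here. Alternatives used DESeq2 1.42.0, limma-voom (limma 3.58.1), other scaling, filters and terms, and each mouse left out. The fit with only 4 mice was added after the data were seen.

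The text names all 10 genes, every Bcas1 and Daam2 isoform, the most abundant isoform of the others and any isoform with an unadjusted p under 0.05, the list gene with the lowest p in each direction, and the 3 nearest profiles to Bcas1 and to Daam2. Cspg4-203, Cspg4-204, Pdgfra-205, Aqp4, Slc1a2 and Gja1 were named after their values were seen. Members and lists were chosen with earlier results of these data known. The 13 lists held precursor, newly formed and mature oligodendrocyte genes, Wnt pathway genes, formins, inositol trisphosphate receptors, and markers of astrocytes, neurons, microglia, pericytes and fibroblasts, endothelium, choroid plexus and thalamus. One listed gene, 9630013A20Rik, had no row and was not analysed here. The counts of a mouse summed to 40.5 M to 62.1 M read pairs assigned to isoforms, and each comparison rests on 3 mice in each genotype.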

Additional observations from a re-analysis of the deposited data

How the results depend on the processing

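Of the 10 lineage genes, edgeR called 2, Bcas1 and Daam2, against 0.0264% of the 18924 genes tested. Both were listed because this contrast called them, so the count of 2 was fixed in advance. Refits of the same mice only describe how the call depends on the settings. The same 2 were called with DESeq2's size factors, upper quartile scaling, either other filter, counts not rounded and DESeq2's Wald test. They were also called with a term for Xist and in the 4 mice without choroid plexus transcripts. Limma-voom called 1, Daam2, with Bcas1 at an adjusted p of 0.0742. With each mouse left out the count was 1 to 2: Daam2 stayed, and Bcas1 was lost without N-cre replicate 1, 2 or 3 and without N-cre;Fox1 replicate 3 (adjusted p 0.0737 to 0.304 in those edgeR fits, and 1.16e-12 to 0.304 over all 16 alternatives). The edgeR fits without N-cre;Fox1 replicate 1 or 2 kept Bcas1, at adjusted p of 0.0191 and 0.00058. Why the call was lost in the other fits was not tested. The isoform count rose from 0 to 1 (Daam2-203) with no filter and with at least 10 counts in every mouse. In DESeq2's Wald test it rose to 2 (with Bcas1-208), where 0.426% of all isoforms were called. It was 0 in every other alternative. The 8 other genes were called in 0 of their 128 fits, and 15 of these turned the sign of values near 0. Gpr17 was at 0.000748 with DESeq2's size factors, 0.0039 with no filter, 0.0021 with 10 counts in every mouse, 0.000768 in DESeq2's Wald test, 0.000775 with a term for Xist and 0.0856 in the 4 mice, and at -0.0644 to 0.0553 with a mouse left out. In the 4 mice Cspg4 was at 0.0073 and Myrf at 0.0433. With a mouse left out Myrf was at -0.114 to 0.0374 and Sox10 at -0.0180 to 0.259.

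Replicate numbers did not pair the mice throughout: the deviations of same-numbered mice correlated at 0.69, -0.12 and -0.25 for replicates 1, 2 and 3. Across numbers, N-cre replicate 3 and N-cre;Fox1 replicate 2, the 2 mice with choroid plexus transcripts, correlated at 0.71. N-cre replicate 2 and N-cre;Fox1 replicate 3 correlated at 0.48, and the remaining pairs at -0.60 to -0.11. With the replicate block edgeR called 2 genes, Bcas1 (0.43, adjusted p 0.00784) and Daam2 (-0.57, adjusted p 0.000442), and 0 isoforms, and Gpr17 stood at 0.000438. No test of isoform shares was run. At this depth the least abundant gene, Enpp6, had 337 to 452 normalized counts per mouse.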

Other observations

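Cells outside the oligodendrocyte lineage gave these values. The 8 neuron markers had a median log2 fold change of -0.02, with Slc17a7 at 0.00 and Syt1 at -0.05, and the 7 microglia markers one of -0.04, with Csf1r at 0.03 and Tmem119 at -0.09. The 4 endothelium markers had a median of 0.09, with Flt1 at 0.09. Of the 11 pericyte and fibroblast markers the median was -0.04, with Vtn at 0.11 (unadjusted p of 0.0372 in edgeR, higher without overlap) and Abcc9 at -0.11. The 6 thalamus markers had a median of -0.09. Among them Slc17a6, a glutamate transporter of thalamic neurons, had 1126, 1096 and 959 normalized counts in N-cre and 859, 938 and 955 in N-cre;Fox1 mice, lower without overlap, at a log2 fold change of -0.21 (edgeR, adjusted p of 0.769), and Tnnt1 stood at 0.28. The choroid plexus markers had a median of 1.10, which rests on the 2 mice that held them, with Folr1 at 739 counts in N-cre replicate 3, 1640.3 in N-cre;Fox1 replicate 2 and 39.5 to 54.2 in the other 4 mice. In edgeR none of these genes reached an adjusted p under 0.05.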
